A study of Homo sapiens with 3 samples.

Results

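The genes of cholesterol and fatty acid synthesis were examined in T24 cells, a human bladder carcinoma line. Their 33 members were chosen by name, as enzymes of the sterol pathway, regulators of the sterol regulatory element-binding proteins (SREBPs), sterol transport proteins and enzymes of fatty acid synthesis, and were found by Ensembl identifier among the 58381 genes of the count table. RNA was sequenced in 3 conditions with 1 library each. Ctrl cells were labelled Empty for treatment, RT cells had received ionising radiation at 10 Gray (Gy), and RT + shHDAC6 cells had received the same dose and a lentiviral shRNA against HDAC6, a mostly cytoplasmic deacetylase of tubulin and other proteins. According to the growth protocol, cells were infected with the shRNA vector or a control pLKO.1 vector and selected with puromycin, so that vector and puromycin were shared by the groups, although the study's text also calls its comparator parental cells. None of the 3 libraries came from unirradiated shHDAC6 cells, so the shRNA could be compared in irradiated cells only. No condition had replicates, so no p-value is given and every difference is one between single libraries.

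Cholesterol is built from acetyl-CoA by the mevalonate steps, mostly in the cytosol, and from squalene onwards by enzymes held in the membrane of the endoplasmic reticulum (ER). SREBPs are membrane-bound transcription factors. When ER sterol is low, SCAP escorts them to the Golgi for cleavage, and when sterol is high, INSIG proteins hold SCAP in the ER. SREBF2 mainly drives sterol genes and SREBF1 mainly drives fatty acid genes, and INSIG1 and STARD4 are well-known SREBP targets.

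All 33 genes were well covered. Their counts ranged from 239 to 64972 in Ctrl, from 170 to 35339 in RT and from 212 to 40913 in RT + shHDAC6, and all 33 belonged to the 12733 genes that reached 100 counts in any library, to which the comparisons were limited. Of the 41811165 counts of Ctrl, the 35959265 of RT and the 35424086 of RT + shHDAC6, they took 0.653%, 0.572% and 0.589%. Mitochondrially encoded RNA took 3.75%, 6.09% and 5.51%, and 31034, 28616 and 28913 genes had a count, and their part in the results was not tested. HDAC6 itself had 68.3, 71.0 and 62.0 counts per 1000000 counts (CPM, after TMM scaling of the library sizes), so its level in the library labelled as knockdown was 87.2% of that in RT (log2 ratio -0.20, interval -0.28 to -0.11). Of 15 epithelial and urothelial markers, 10 were among the genes compared. For RT against Ctrl, 8 of the 10 had negative log2 ratios, with a median of -0.42, and KRT18 was called higher (0.62) and KRT19 lower (-0.67). For RT + shHDAC6 against RT, 7 of the 10 had positive log2 ratios, with a median of 0.26, and KRT7, GATA3 and PPARG were called lower (-2.75, -1.07 and -0.95). Of the uroplakins, UPK1A had 18 counts in Ctrl and 2 in each irradiated library, and UPK1B, UPK2 and UPK3A had at most 3 in a library. All 4 mesenchymal markers were among the genes compared and summed to 2716, 1849 and 2346 TPM (a level per exon length, scaled to a sum of 1000000) in Ctrl, RT and RT + shHDAC6, mostly VIM, while CDH2 was called higher in RT against Ctrl (0.78) and lower in RT + shHDAC6 against RT (-1.04). Of the 5 leukocyte markers, 2 had enough counts to be compared, PTPRC and LYZ, and none was at 0. They summed to 16.0, 8.67 and 9.18 TPM and the 4 endothelial markers, of which 3 had enough counts, to 15.2, 7.64 and 11.0 TPM. The part of these markers was not tested either, and in bulk RNA fewer cells of a type and less RNA per cell cannot be told apart.

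Promoter windows of 250 bases before to 50 bases after the start were found in the RefSeq table (GRCh38.p14) for 29 of the 33 genes. The sterol regulatory element, searched as TCACNCCAC on both strands, was matched in 1 of the 29 genes (3.45%), SREBF2, against 1.39% of all 27305 genes of the table, which include non-coding genes. Only this pattern within the window was searched, so a variant element or one outside the window would be missed. The CCAAT box, which binds NF-Y, a partner of SREBPs, was matched in 20 of the 29 (69.0%) against 39.7% of all genes. The E-box CACGTG, which SREBPs can also bind, was matched in 4 (13.8%) against 8.77%, and the Sp1 box GGGCGG in 28 (96.6%) against 48.3%. The last 2 motifs and CCAAT are short and are found in many promoters. The windows of INSIG1 and STARD4, which were lower in RT, of SCAP and EBP, which were higher, and of SREBF2 are printed 5′ to 3′ because they bring together both directions and the single match of the sterol element. Capitals mark the sterol element, CCAAT and the E-box on either strand.
INSIG1 (chr7:155297628-155297927, plus strand): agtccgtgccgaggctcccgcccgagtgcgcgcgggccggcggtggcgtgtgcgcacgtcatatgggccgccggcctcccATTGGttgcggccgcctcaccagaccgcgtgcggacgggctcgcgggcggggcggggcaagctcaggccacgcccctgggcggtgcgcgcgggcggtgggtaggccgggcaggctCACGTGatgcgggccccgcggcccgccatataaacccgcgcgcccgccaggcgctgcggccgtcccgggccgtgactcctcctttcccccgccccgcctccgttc
STARD4 (chr5:111512486-111512785, minus strand): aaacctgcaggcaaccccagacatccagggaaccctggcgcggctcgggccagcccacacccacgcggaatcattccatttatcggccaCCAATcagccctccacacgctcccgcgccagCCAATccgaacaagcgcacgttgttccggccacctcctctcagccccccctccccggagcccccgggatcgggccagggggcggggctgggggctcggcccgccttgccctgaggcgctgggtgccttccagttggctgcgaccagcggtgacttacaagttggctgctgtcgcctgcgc
SCAP (chr3:47475892-47476191, minus strand): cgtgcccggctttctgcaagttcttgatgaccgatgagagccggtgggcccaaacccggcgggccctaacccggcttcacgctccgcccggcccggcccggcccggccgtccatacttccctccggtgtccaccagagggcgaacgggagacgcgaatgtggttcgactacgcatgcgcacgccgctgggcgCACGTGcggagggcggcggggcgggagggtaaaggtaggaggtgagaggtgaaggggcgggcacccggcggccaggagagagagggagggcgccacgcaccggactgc
EBP (chrX:48521558-48521857, plus strand): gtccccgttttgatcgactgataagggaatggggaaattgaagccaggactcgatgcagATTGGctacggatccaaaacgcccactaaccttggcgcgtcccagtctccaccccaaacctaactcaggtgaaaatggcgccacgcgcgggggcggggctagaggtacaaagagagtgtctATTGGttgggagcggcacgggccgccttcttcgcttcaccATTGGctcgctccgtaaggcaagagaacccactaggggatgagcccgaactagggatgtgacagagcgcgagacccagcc
SREBF2 (chr22:41832855-41833154, plus strand): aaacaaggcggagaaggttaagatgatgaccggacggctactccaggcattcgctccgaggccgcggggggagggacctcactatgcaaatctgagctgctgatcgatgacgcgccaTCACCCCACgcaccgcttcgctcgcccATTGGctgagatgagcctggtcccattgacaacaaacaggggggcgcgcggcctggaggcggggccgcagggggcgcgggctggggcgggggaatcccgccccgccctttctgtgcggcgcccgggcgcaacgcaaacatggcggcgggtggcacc
The lower genes INSIG1 and STARD4 and the higher gene EBP all held CCAAT, and INSIG1 and SCAP, which moved in opposite directions, each held CACGTG. Among the other genes called higher or lower, HMGCS1, DHCR7 and FADS2 held CCAAT, and it was not matched in LPIN1, NPC1 and FADS1, so that CCAAT was held by genes of either direction.

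To see how much of the transcriptome the pathway occupied, levels were compared per exon length. SCD, the desaturase that makes oleic acid, was the highest of the 33 in all libraries, with 1336, 785 and 934 TPM in Ctrl, RT and RT + shHDAC6. FASN, which builds palmitate, had 486, 434 and 475 TPM, and ACLY, which makes cytosolic acetyl-CoA, had 459, 372 and 356 TPM. The next genes in Ctrl were ACAT2 (218 TPM), FDPS (185 TPM) and SREBF2 (176 TPM). The lowest were TM7SF2 (7.56 TPM), CYP51A1 (7.13 TPM) and FADS2 (6.72 TPM). With the longest transcript as the length, SCD stayed at the top in Ctrl (985 TPM), but ACLY (409 TPM) passed FASN (395 TPM), so the order of these neighbours depends on the length used. CYP51A1 is the sterol demethylase, and its value is uncertain, since 3 pseudogenes named after it had 165 counts in Ctrl beside its own 276, and 68.2% of its exon length lies in other genes of the same strand in GENCODE release 44.

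The comparison of RT with Ctrl asks how irradiation went along with expression of the pathway. The genes EBP, DHCR7, SCAP, NPC1, FADS1 and FADS2 were at least 1.5-fold higher in RT, and HMGCS1, ACAT2, INSIG1, STARD4 and LPIN1 at least 1.5-fold lower, with counting intervals that excluded 0. Thus 6 of 33 genes were higher, where 15.8% of all genes compared were, and 5 were lower, where 10.1% were (11 either way, against 25.8%). These shares were near those of all genes. The median log2 ratio of the 33 was 0.02, beside 0.05 over all genes compared, with a range from -0.86 to 0.92. The split between higher and lower calls depended on the scaling: library totals, which shift every RT against Ctrl ratio by -0.22 on the log2 scale, gave 1 higher and 9 lower genes. SCAP was past the fold upwards, and HMGCS1, ACAT2, STARD4 and LPIN1 downwards, in all 4 scalings. The ranges in parentheses after log2 ratios are exact binomial (Clopper-Pearson) 95% intervals and cover counting error only.

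The mevalonate steps lay on the low side. Positions of the called genes are given on GRCh38 from GENCODE release 44. ACAT2 (chr6:159762045-159779112, plus strand), the cytosolic thiolase of the first step, had 117.8, 73.9 and 72.0 CPM in Ctrl, RT and RT + shHDAC6, and HMGCS1 (chr5:43287470-43313512, minus strand), the HMG-CoA synthase that follows it, had 120.4, 73.6 and 76.2 CPM. Both stood high in Ctrl alone. The log2 ratios of RT against Ctrl were -0.67 (-0.74 to -0.61) for ACAT2 and -0.71 (-0.78 to -0.64) for HMGCS1. Of the exon length of HMGCS1, 37.7% is shared with a gene on the other strand, and of ACAT2 22.2%. The strand setting of the counting is not stated.

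The later mevalonate enzymes did not reach the fold with TMM. The decarboxylase MVD had 99.6, 70.8 and 70.6 CPM (RT against Ctrl: log2 ratio -0.49, interval -0.57 to -0.42), and the isomerase IDI1 had 67.3, 49.3 and 60.5 CPM (log2 ratio -0.45, interval -0.54 to -0.36). Each was highest in Ctrl. With library totals the log2 ratios were -0.71 for MVD and -0.67 for IDI1, past the fold. The kinase MVK had 27.6, 22.3 and 21.7 CPM, a log2 ratio of -0.31 (-0.44 to -0.18). The kinase PMVK, at 21.6, 21.7 and 23.3 CPM, did not differ detectably at this depth between Ctrl and RT (-0.14 to 0.14). FDPS, the farnesyl diphosphate synthase, had 140.6, 135.6 and 131.3 CPM, a log2 ratio of -0.05. Over the 7 mevalonate genes the median log2 ratio was -0.45 with TMM. This is 0.50 under that of all genes compared, a difference that does not depend on the scaling. Their summed level was 595.0, 447.0 and 455.7 CPM in Ctrl, RT and RT + shHDAC6.

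From squalene onwards the values divided within the chain. FDFT1, the squalene synthase, had 106.4, 73.3 and 79.0 CPM, a log2 ratio of -0.54 (-0.61 to -0.47) for RT against Ctrl, and the cyclase LSS had 191.4, 152.7 and 149.7 CPM, a log2 ratio of -0.33. SQLE, the squalene epoxidase that acts between them, had 114.3, 157.2 and 135.4 CPM and so lay on the other side, at 0.46 (0.40 to 0.51). None of these was past the fold with TMM. FDFT1 was past it with upper quartile factors (-0.59) and with library totals (-0.76).

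The last steps held the called genes of this arm. EBP (chrX:48521799-48528716, plus strand), the sterol isomerase, had 55.9, 93.1 and 74.4 CPM in Ctrl, RT and RT + shHDAC6, a log2 ratio of 0.73 (0.66 to 0.81). DHCR7 (chr11:71428193-71452868, minus strand), the final reductase, had 157.2, 249.5 and 236.7 CPM, a log2 ratio of 0.67 (0.62 to 0.71). Both were lowest in Ctrl and highest in RT. With library totals their log2 ratios were 0.52 and 0.45, under the fold. In the release 44 annotation, 36.4% of the exon length of EBP lies in another gene of the same strand.

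The enzymes that remove the methyl groups of lanosterol lay between. CYP51A1, which takes off the first of them, had 276, 306 and 280 counts in the 3 libraries, which is 6.09 CPM in Ctrl and 9.12 CPM in RT. Its log2 ratio of RT against Ctrl, 0.58 (0.34 to 0.82), was just under the fold, which is 0.585 on the log2 scale. With median-of-ratios scaling its ratio was 0.64, past the fold. The ratios were 0.40 (0.32 to 0.49) for the oxidase MSMO1 and 0.46 (0.36 to 0.56) for the dehydrogenase NSDHL, which had 38.1, 52.4 and 46.1 CPM. These genes were highest in RT. The desaturase SC5D had 42.2, 53.8 and 50.9 CPM in the 3 libraries, a log2 ratio of 0.35 (0.26 to 0.44). For the reductases HSD17B7, at 16.5, 15.7 and 14.2 CPM, and TM7SF2, at 5.27, 5.07 and 6.05 CPM, the intervals held 0. HSD17B7 had 746 counts in Ctrl, and 2 pseudogenes named after it had 341. The 11 genes from squalene onwards had a median of 0.40, which is 0.35 over that of all genes compared.

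Genes from the opposite ends of the chain can be set against each other without any scaling between libraries. Those taken here were called in opposite directions for RT against Ctrl, so a difference away from 0 there followed from the choice. The log2 ratio of HMGCS1 minus that of DHCR7 was -1.38 for RT against Ctrl (interval -1.46 to -1.29, from a normal approximation to the log counts, as for the other differences between genes), and that of ACAT2 minus that of EBP was -1.41 (-1.51 to -1.31). For RT + shHDAC6 against RT these differences were 0.13 (0.04 to 0.22) and 0.29 (0.18 to 0.40).

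Among the regulators, the largest difference was that of the escort protein. SCAP (chr3:47413681-47477126, minus strand) had 125.1, 237.4 and 193.5 CPM in Ctrl, RT and RT + shHDAC6, a 1.90-fold higher level in RT than in Ctrl (log2 ratio 0.92, interval 0.88 to 0.97). INSIG1 (chr7:155297776-155310235, plus strand), its ER anchor, had 95.8, 63.6 and 65.8 CPM, a log2 ratio of -0.59 (-0.67 to -0.52), just past the fold, and -0.53 with median-of-ratios scaling. The balance of INSIG1 to SCAP was therefore lower in RT by 1.52 on the log2 scale (difference -1.52, interval -1.61 to -1.43), whatever the scaling.

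The other regulators were under the fold. INSIG2, the paralog of INSIG1, had 19.5, 16.1 and 15.9 CPM, with a log2 ratio of -0.27 (-0.43 to -0.12). The transcription factor genes themselves differed little. SREBF1 had 239.4, 279.7 and 260.1 CPM (log2 ratio 0.22, 0.01 with library totals) and SREBF2 had 289.2, 324.4 and 305.3 CPM (log2 ratio 0.17, but -0.05 with library totals). RNA levels do not show how much of either protein was cleaved.

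Of the sterol transport genes, STARD4 (chr5:111496033-111512590, minus strand), a soluble sterol carrier, had the lowest ratio of the 33. It had 93.2, 51.4 and 38.9 CPM in Ctrl, RT and RT + shHDAC6, so that RT stood at 55.1% of Ctrl (log2 ratio -0.86, interval -0.94 to -0.78). NPC1 (chr18:23506184-23586506, minus strand), which exports cholesterol from late endosomes and lysosomes, had 118.3, 183.6 and 192.0 CPM, a log2 ratio of 0.63 (0.58 to 0.69) that was 0.42 with library totals and 0.58 under the upper quartile factors, both below the fold. STARD4 was high in Ctrl and NPC1 low there. Of the 12733 genes compared, 3.67% had a lower ratio than STARD4.

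The enzymes of fatty acid synthesis lay on both sides. Those that supply and join acetyl units differed little between RT and Ctrl: the log2 ratios were 0.02 for ACLY, 0.13 for the acetyl-CoA carboxylase ACACA and 0.16 for FASN, and all 3 were under 0 with library totals. ACACA had 216.0, 236.9 and 212.7 CPM, and FASN 926.8, 1034 and 1057 CPM. SCD had 1433, 1054 and 1168 CPM, a log2 ratio of -0.44 (-0.46 to -0.42), and was thus the arm's most abundant gene and, after LPIN1, its lowest ratio.

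The desaturases of polyunsaturated fatty acids, which overlap on chromosome 11, were both called higher in RT. FADS1 (chr11:61799627-61829318, minus strand) had 294.1, 501.4 and 419.4 CPM, a log2 ratio of 0.77 (0.74 to 0.80). FADS2 (chr11:61792980-61867354, plus strand) had 14.5, 23.4 and 30.8 CPM, a log2 ratio of 0.69 (0.54 to 0.84). Their ratios could not be told apart at this depth (difference -0.08, interval -0.23 to 0.07). The genes overlap on opposite strands, over 4.8% of the exon length of FADS1.

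ELOVL6, an elongase of saturated and monounsaturated chains, had 92.1, 135.6 and 116.0 CPM, a log2 ratio of 0.56 (0.50 to 0.62), just under the fold. With median-of-ratios scaling the ratio of ELOVL6 was 0.62, past the fold. LPIN1 (chr2:11677595-11827409, plus strand), a phosphatidic acid phosphatase on the way to triglycerides, went the other way, with 202.3, 121.1 and 138.5 CPM and a log2 ratio of -0.74 (-0.79 to -0.69). The log2 ratio of FADS1 lay 1.21 above that of SCD, with a lower bound of 1.18.

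**Figure D1:**
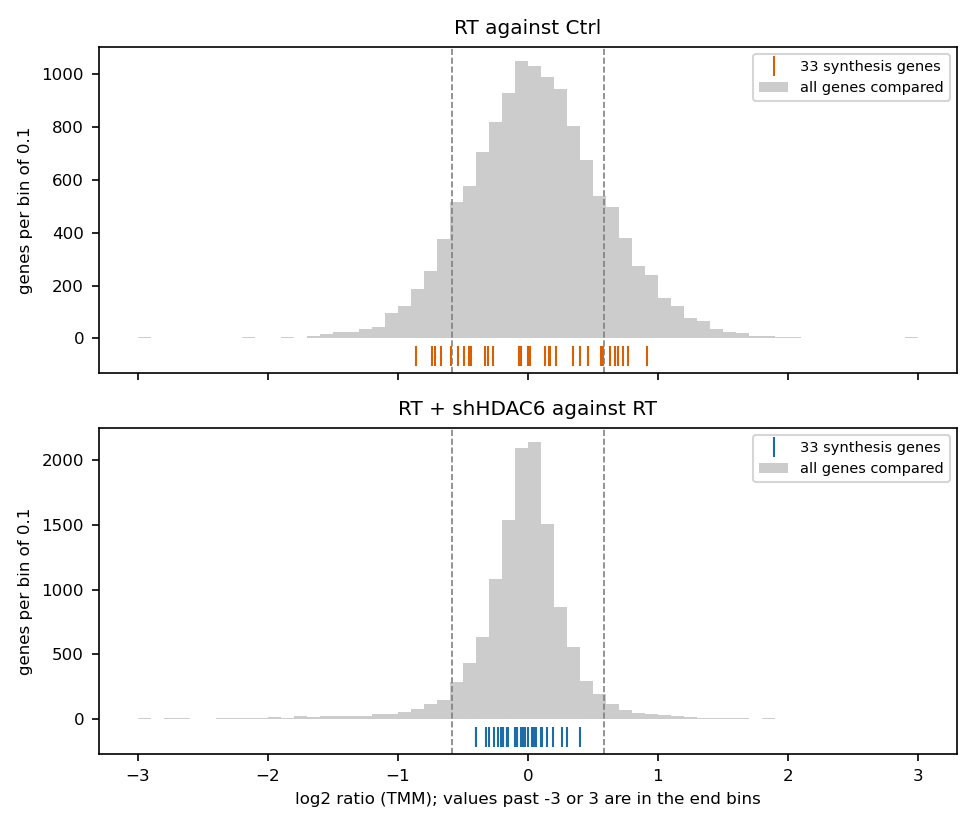
Histograms of the log2 ratios of the 12733 genes compared (grey bars, genes per bin of 0.1) for RT against Ctrl (top) and RT + shHDAC6 against RT (bottom), with the 33 genes as coloured ticks under each. The ticks spread over both sides of 0 at the top, from -0.86 to 0.92, and lie between -0.40 and 0.40 at the bottom, inside the dashed 1.5-fold lines.

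The members were also grouped by where their proteins reside, a division made after the values had been seen and therefore given without a test. The 12 soluble proteins were the 7 mevalonate enzymes among the 33 genes, with ACLY, ACACA, FASN, LPIN1 and STARD4. They had a median log2 ratio of -0.38 for RT against Ctrl, with 0 higher and 4 lower. The 21 proteins held in or on a membrane had a median of 0.40, with 6 higher and 1 lower, INSIG1. Over all genes compared the median was 0.05, with 15.8% higher and 10.1% lower. The groups overlapped, since soluble values reached up to 0.16 and membrane values down to -0.59, and 7 of the 21 lay under 0, among them FDFT1, LSS and SCD. For RT + shHDAC6 against RT the medians were -0.02 and -0.09. Across the 33 genes, Spearman's rho of the RT against Ctrl ratio was 0.27 with the GC content of the longest transcript, 0.15 with exon length and 0.11 with level. Over 12685 genes compared it was 0.19, -0.04 and 0.25. Genes share these libraries and are not replicates, and the part of GC content in the result was not tested.

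Other genes of sterol and fatty acid metabolism, in lists drawn up beside the members, were read against the same background. For RT against Ctrl, 15.8% of all genes compared were higher and 10.1% lower, with a median log2 ratio of 0.05. Of 12 genes of SREBP processing and enzyme degradation, 4 were higher in RT against Ctrl and 0 lower, with a median log2 ratio of 0.18. ERLIN1 and ERLIN2, ER scaffold proteins of protein degradation, had log2 ratios of RT against Ctrl of 1.36 (1.30 to 1.41) and 0.94 (0.87 to 1.02).

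Of 22 genes of fatty acid elongation, desaturation and activation, 19 had enough counts. In RT 9 of these were higher, where 15.8% of all genes compared were, and 0 lower, where 10.1% were. Their median was 0.37. The elongase ELOVL1 had 79.1, 161.5 and 139.5 CPM, a log2 ratio of 1.03 (0.97 to 1.09), and SLC27A4, a fatty acid transport protein with acyl-CoA synthetase activity, had 84.8, 162.8 and 125.2 CPM, a log2 ratio of 0.94. Among 13 genes of sterol uptake, storage and transport, 4 were higher and 2 lower, with a median of 0.21. The lipoprotein receptor SCARB1 had 136.4, 336.5 and 222.4 CPM, a log2 ratio of 1.30 (1.26 to 1.35), and TMEM97, an ER and lysosomal protein that binds NPC1, had 54.2, 129.2 and 103.6 CPM, a 2.38-fold higher level in RT than in Ctrl. GRAMD1C, of a family of sterol transfer proteins at membrane contacts, had a log2 ratio of -1.14 (-1.38 to -0.90). Of the 6 liver X receptor genes and targets, 5 had enough counts, and 0 were called in either direction, with a median of -0.33.

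The comparison of RT + shHDAC6 with RT asks what the shRNA went along with in irradiated cells. HDAC6 RNA itself stood at 87.2% of RT in the library labelled as knockdown, under the fold. The study reported lower HDAC6 RNA by qPCR and lower HDAC6 protein by Western blot in its shHDAC6 T24 cells. The comparison shares the RT library with the comparison before. None of the 33 genes changed by 1.5-fold: 0 were higher, where 3.24% of all genes compared were, and 0 were lower, where 5.73% were (8.96% either way). The median log2 ratio was -0.05, beside -0.02 over all genes compared, and the values lay between -0.40 and 0.40. Counting intervals excluded 0 for 20 of the 33, which says that depth was not the limit but not that replicate libraries would differ.

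The largest values lay on either side. The sterol carrier STARD4 was under the fold at -0.40 (-0.50 to -0.30) in RT + shHDAC6, which stood at 75.7% of RT. The methyl oxidase MSMO1 had 46.1, 61.0 and 46.2 CPM in Ctrl, RT and RT + shHDAC6, also a log2 ratio of -0.40 (-0.50 to -0.31). EBP followed at -0.32 (-0.40 to -0.25), SCAP at -0.30 (-0.34 to -0.25) and FADS1 at -0.26 (-0.29 to -0.23). In the other direction FADS2 had 0.40 (0.26 to 0.53), IDI1 0.30 (0.20 to 0.39), TM7SF2 0.26, with an interval that held 0 (-0.04 to 0.56), and LPIN1 0.19 (0.13 to 0.25). The neighbouring desaturases thus parted here, FADS2 lying 0.65 above FADS1 (0.52 to 0.79).

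Several genes called in RT against Ctrl were nearly level between the irradiated libraries. The log2 ratios of RT + shHDAC6 against RT were 0.05 for HMGCS1 (-0.03 to 0.13), -0.04 for ACAT2 (-0.12 to 0.04), 0.05 for INSIG1 (-0.04 to 0.14), 0.06 for NPC1 (0.01 to 0.11) and -0.08 for DHCR7 (-0.12 to -0.03). SREBF1 and SREBF2 had -0.10 and -0.09. In the related lists, NR1H3, the alpha liver X receptor, was higher in RT + shHDAC6 than in RT (log2 ratio 0.63, interval 0.37 to 0.89), as were SCD5, another stearoyl-CoA desaturase gene (0.70, interval 0.59 to 0.82), and GRAMD1B (1.11, interval 0.86 to 1.37), while SCARB1 was lower (-0.60, interval -0.64 to -0.56). For RT against Ctrl, NR1H3 had a log2 ratio of -0.48, under the fold, and GRAMD1B was called lower, at -0.75. Their ratios of RT + shHDAC6 against Ctrl, 0.15 and 0.36, were under the fold. SCD5 was higher than Ctrl in both irradiated libraries (0.74 and 1.44).

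For RT + shHDAC6 against Ctrl, which shares a library with each comparison above, 4 of the 33 genes were higher, where 13.5% of all genes compared were, and 3 lower, where 11.7% were (25.2% either way). The higher genes were FADS2 (log2 ratio 1.08, interval 0.94 to 1.23), NPC1 (0.70, interval 0.65 to 0.75), SCAP (0.63, interval 0.58 to 0.68) and DHCR7 (0.59, interval 0.54 to 0.64). The lower genes were STARD4 (-1.26, interval -1.35 to -1.17), ACAT2 (-0.71, interval -0.78 to -0.64) and HMGCS1 (-0.66, interval -0.73 to -0.59). FADS2 and STARD4 were the members that differed at least 2-fold, at 212% and 41.7% of their level in Ctrl. Library totals gave 1 higher and 6 lower genes. INSIG1 (-0.54) and LPIN1 (-0.55) lay just under the fold, and MSMO1 stood at its Ctrl level (-0.09 to 0.10).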

How the data were processed

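RNA of T24 cells was sequenced in 3 conditions, with 1 library each. Adapters were removed by the authors with cutadapt. Alignment was done with STAR on GRCh38, and featureCounts assigned the reads to genes of GENCODE release 28. The values the authors deposited are raw read counts per gene. The labels and the methods differ in the library kit and the STAR version, and the strand setting and the treatment of reads matching several genes are not given in the sources used here.

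Of 58381 identifiers, 57754 were matched to GENCODE release 44 for symbols, positions and exon lengths. Counts were scaled by TMM over the 3 libraries together (edgeR 4.0.16, R 4.3.3). A gene was called when its log2 ratio was at least 1.5-fold and its 95% Clopper-Pearson interval (scipy 1.17.1, Python 3.11.15) excluded 0, among genes that reached 100 counts in any library. The fold rule replaces the NOISeq call of the study, since single libraries allow no test. The calls were tested on simulated data that held counting error only, so that test cannot cover variation between replicate libraries. A count of 0 allows up to 3 counts, or 0.0662, 0.0894 and 0.0857 CPM. Reads are not independent molecules, so intervals and this limit cover counting error only.

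All 33 members, HDAC6 and, per related list, up to 3 called genes with the largest ratios were to be named, with the marker genes. The uroplakins were named after their values were seen. A gene covered by this rule is not reported here. Members and lists were chosen with earlier results of these data known. Alternatives were library totals, median-of-ratios factors (DESeq2 1.42.0), upper quartile factors, folds of 2 and 5/4, minimums of 10 counts and none, and the longest transcript as length. Ratios centred on the median of all genes and the grouping by protein location were added after seeing the data. The differences between pairs of genes were not part of the plan.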

Additional observations from a re-analysis of the deposited data

How the results depend on the processing

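The division of the 33 genes for RT against Ctrl, 6 higher and 5 lower, stayed within 1.5 times under median-of-ratios and upper quartile scaling, minimums of 10 counts and none, and centring on the median of all genes. Library totals gave 1 higher and 9 lower, a 2-fold rule 0 and 0, and a 5/4-fold rule 12 and 10. The median log2 ratio was 0.02, but became -0.20 under library totals and -0.04 under the upper quartile factors. For RT + shHDAC6 against RT, the counts of 0 and 0 became 1 and 3 with the 5/4-fold rule, and the median of -0.05 became 0.04 with library totals. For RT + shHDAC6 against Ctrl, 4 higher and 3 lower became 1 and 6 with library totals, 1 and 1 with the 2-fold rule and 8 and 9 with the 5/4-fold rule, and the median of 0.00 became -0.13 with library totals. Under library totals these shifts follow from the scaling itself, which moves all ratios of a comparison alike. None of the called members changed sign under the 4 scalings, while 7 members for RT against Ctrl, 8 for RT + shHDAC6 against RT and 5 for RT + shHDAC6 against Ctrl, all uncalled, did. No paired analysis was possible because each condition has 1 library, and for the same reason no library could be left out. Depth did not limit the members except TM7SF2, CYP51A1, INSIG2 and HSD17B7, whose intervals were the widest in RT against Ctrl.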

Other observations

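Genes of glycerolipid synthesis, the isoprenoid branch and fatty acid oxidation were read in the same way, with 95% counting intervals in parentheses. Of all genes compared, 15.8% were higher and 10.1% lower in RT than in Ctrl, with a median log2 ratio of 0.05. Of 13 glycerolipid genes, 4 were higher and 1 lower in RT than in Ctrl, with a median log2 ratio of 0.36. DGAT1, which makes triglyceride, had 24.8, 49.4 and 37.9 CPM in Ctrl, RT and RT + shHDAC6 (RT against Ctrl: log2 ratio 0.99, interval 0.88 to 1.10). PLIN3, a lipid droplet coat protein, had 116.8, 58.0 and 102.6 CPM, log2 ratios of -1.01 (-1.08 to -0.93) for RT against Ctrl and 0.82 (0.74 to 0.90) for RT + shHDAC6 against RT. DGAT2, another triglyceride synthase, had 160, 193 and 82 counts, and its ratio of RT + shHDAC6 against RT was -1.30 on the log2 scale (-1.69 to -0.92).

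Of 9 isoprenoid genes, 1 was higher and 1 lower in RT than in Ctrl, PDSS1 (20.6, 37.8 and 40.5 CPM) at a log2 ratio of 0.88 and GGPS1, on 200 and 93 counts, at -0.67 (-1.04 to -0.31). Of 17 fatty acid oxidation genes, 16 had enough counts. Their median was -0.15 for RT against Ctrl, with 0 higher and 1 lower, the regulator PPARA (-0.90, interval -1.06 to -0.75). CPT1A, which admits fatty acids to mitochondria, had 135.2, 139.4 and 86.0 CPM, level between Ctrl and RT (-0.01 to 0.10) and, for RT + shHDAC6 against RT, lower, at -0.70 on the log2 scale (-0.76 to -0.63).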
